A study of Homo sapiens with 2 samples.

Results

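The cytosolic ribosomal protein genes were compared between 1 library of live and 1 library of processed Stage 6 cells. Genes were taken by their symbols (RPL or RPS followed by a number, with the stalk genes RPLP0, RPLP1 and RPLP2, RPSA and FAU), which selected 89 of the 55797 genes. Of these 89, 78 encode the standard proteins of the ribosome, 46 of the large and 32 of the small subunit, and are called canonical here. The other genes are 8 L paralogues or duplicate loci, among them RPL3L, RPL7L1, RPL10L, RPL22L1, RPL26L1, RPL39L and RPS27L, and 3 loci, RPS10L, RPS4L and RPL12L3, that a later GENCODE release lists as processed pseudogenes. Symbols that do not follow the pattern, such as RPL36AL, are not among the 89.

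Both libraries came from the human embryonic stem cell line H1, which is an established line, carried through a stepwise pancreatic protocol to stage 6, when insulin-expressing cells are present, and then divided. Live cells were neither fixed nor sorted, and their RNA was extracted by the RNeasy protocol. Processed cells went through MARIS, in which cells are fixed in 4% paraformaldehyde, permeabilized, stained with antibodies and passed through the sorter. All cells were collected after that sort, and RNA was extracted with a modified RecoverAll kit. The culture was a mixture of cell types, and in such bulk RNA fewer cells of a type and less RNA per cell cannot be told apart. The 7 endocrine markers (INS, GCG, SST, CHGA, NEUROD1, PDX1 and NKX6-1) had an FPKM between 13.1 and 1794 in live and between 15.2 and 1741 in processed cells. CHGA was the highest of these in both libraries. Its value in processed cells is uncertain, with bounds of 0 to 4712 FPKM and a failed status in the authors' table. Duct, mesenchyme, pluripotency and liver or gut markers were present too, with 3 genes in each list. In this order, they ranged from 1.12 to 543, 21.5 to 514, 1.27 to 119 and 14.1 to 460 FPKM in live cells. In processed cells the ranges were 1.66 to 518, 22.7 to 485, 7.34 to 88.7 and 20.9 to 550 FPKM. NANOG rose from 1.27 to 7.34 FPKM, whereas LIN28A fell from 119 to 88.7 FPKM. The acinar markers PRSS1 and CPA1 were low, at 9.52 and 10.4 FPKM in live cells, and AMY2A stayed below 1 FPKM. The blood markers PTPRC, CD14 and HBB stayed below 1 FPKM in both libraries. Values are FPKM, which scales the fragments of a gene to its length and to the size of the library. Levels can therefore be set roughly side by side between genes. How far this holds for the shortest transcripts, down to 295 nt among the canonical genes, was not tested. Each FPKM comes with a lower and an upper bound from the authors' software. There were no replicates, and no p-value is given. The tables hold no fragment counts, so the bounds, which describe each library by itself, are the only measure of precision.

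The cytosolic ribosome is built from ribosomal RNA and one set of proteins, most of them present once per ribosome. The large subunit joins amino acids and the small subunit reads the mRNA. Ribosomal protein mRNAs are among the most abundant in growing cells, and most begin with a cytosine followed by a run of pyrimidines, the 5′ terminal oligopyrimidine (TOP) tract, through which their translation is controlled together. Most of these genes also have processed pseudogenes, copies of the spliced mRNA set back into the genome, which complicates the assignment of short reads.

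The start sites of several members are shown because the tract is the feature that marks these genes as a family. Sequences are from RefSeq (GRCh38.p14), each covering 10 bases before and 20 bases from the first transcribed base, 5′ to 3′. Capitals mark the unbroken run of C and T that holds the first transcribed base.
RPL41 (chr12:56116623-56116652, plus strand): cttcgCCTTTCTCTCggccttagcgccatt
RPS27 (chr1:153990752-153990781, plus strand): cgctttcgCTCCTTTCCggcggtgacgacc
RPL36A (chrX:101391001-101391030, plus strand): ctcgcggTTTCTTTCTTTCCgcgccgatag
RPL22 (chr1:6199576-6199605, minus strand): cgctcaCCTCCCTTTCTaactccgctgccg
RPL22L1 (chr3:170870176-170870205, minus strand): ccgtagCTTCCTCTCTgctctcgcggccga
RPL26 (chr17:8383174-8383203, minus strand): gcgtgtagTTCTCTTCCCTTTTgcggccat
RPL26L1 (chr5:172958719-172958748, plus strand): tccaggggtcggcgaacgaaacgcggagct
RPS27L (chr15:63157458-63157487, minus strand): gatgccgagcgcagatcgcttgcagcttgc
Of the 78 canonical genes, 63 were matched by symbol. In 47 of these (74.6%) at least one listed start was a C followed by 4 bases that are each C or T, against 5.1% of all 27305 genes in the table. The share was 73.7% of 38 large subunit genes and 76.0% of 25 small subunit genes. Among the 5 L paralogues with a listed start it was 1, RPL22L1, and RPS27L and RPL26L1 have no C or T at the first base in the windows printed. The search was anchored at the start and read the transcribed strand only.

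Ribosomal protein genes stood among the most abundant messages in both libraries. The 89 genes together took 11.5% of summed FPKM in live cells and 11.2% in processed cells, and 39 of them in live and 40 in processed cells were among the 100 genes with the highest FPKM. The median FPKM of the 78 canonical genes was 701 in the live and 666 in the processed library. Of the 78, 76 reached an FPKM of 100 in either library, and the remaining 2, RPL9 and RPL36A, are described below with the genes that resemble them.

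The levels were uneven although most of these proteins occupy the ribosome in equal number. RPL41, whose protein is among the smallest known, had the highest FPKM of the family, 2188 (bounds 2170 to 2206) in live cells and 2197 (2178 to 2216) in processed cells. Its coding sequence, printed whole from the GRCh37 transcript to show how short it is, has 78 bases.
RPL41: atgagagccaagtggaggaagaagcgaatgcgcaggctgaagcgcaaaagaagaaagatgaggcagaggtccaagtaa
RPS27, a zinc-binding protein of the small subunit, followed at 2046 and 2127 FPKM. RPS29, another small zinc-binding protein, had 1739 and 1510 FPKM. The next in order of mean FPKM were RPL13, at 1574 and 1414 FPKM, RPL31, at 1578 and 1319 FPKM, RPS3, at 1365 and 1332 FPKM, RPL37A, at 1332 and 1311 FPKM, and RPS24, at 1263 and 1257 FPKM. RPL13 and RPL31 changed places between the libraries, with bounds that overlapped in live cells. At the lower end, in the same order of libraries, RPL7 had 107 and 120 FPKM, RPS7 had 144 and 167 FPKM, and RPL22 had 203 and 137 FPKM. Genes that share an 80-base stretch summed to 935 and 937 FPKM for RPL7, 194 and 207 for RPS7, and 446 and 444 for RPL22. At the upper end, RPL41P1, which shares 0.3% of the 80-base windows of the RPL41 transcript, had 2377 and 2490 FPKM. Of the canonical genes, 59 in live and 60 in processed cells lay within 2-fold of the canonical median. The coefficient of variation between canonical genes was 58.6% in the live and 58.3% in the processed library. The order of the genes was nearly shared by the libraries, with a Spearman's rho of 0.990 across the 78 genes and 9 genes common to both lists of the 10 highest. This is a description across genes that share their libraries, and genes are not replicates.

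**Figure D1:**
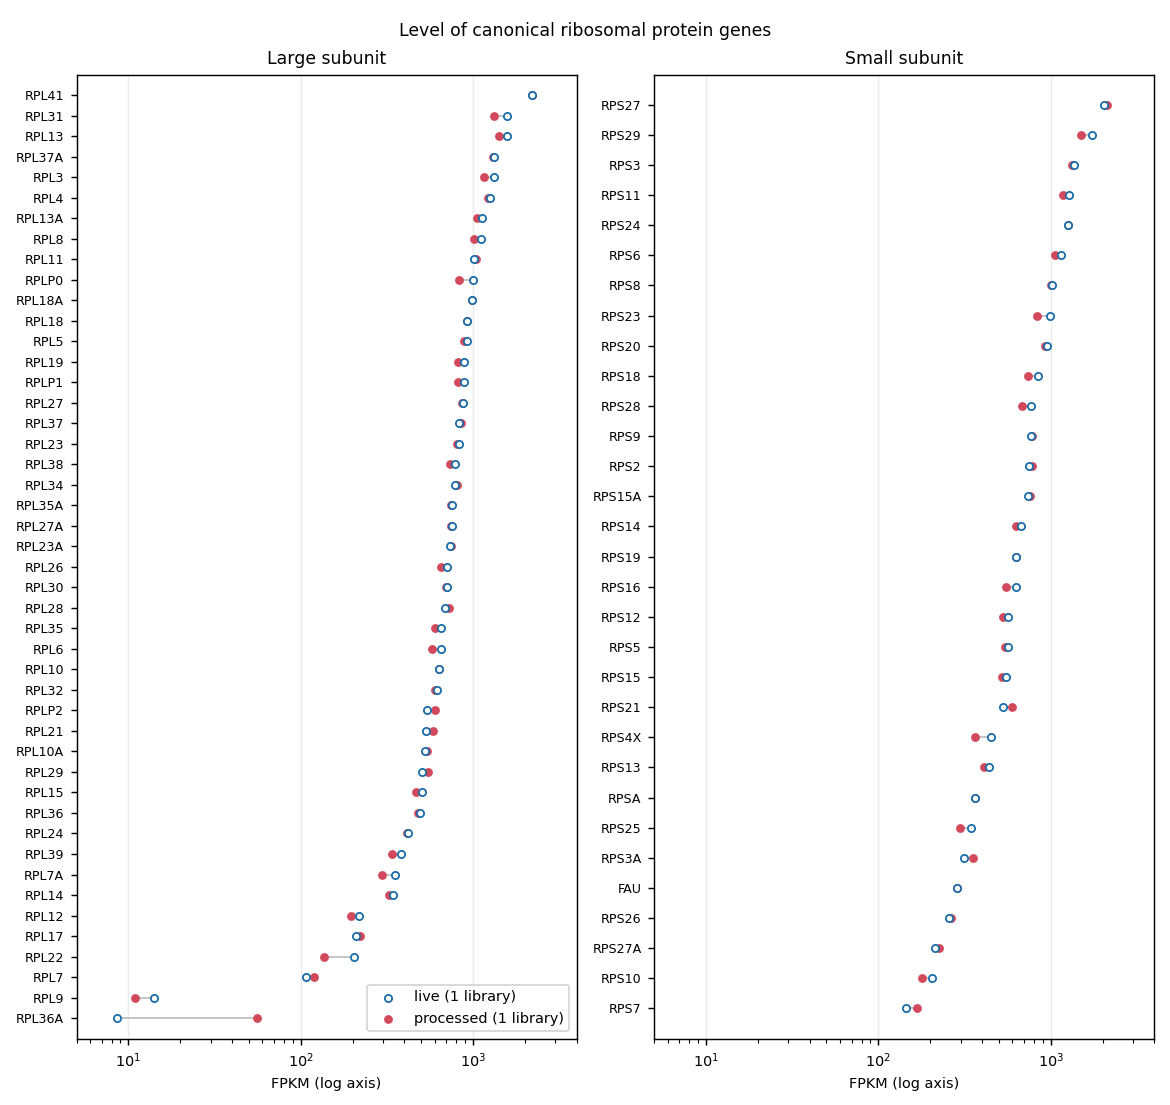
FPKM (log axis) of 46 large subunit and 31 small subunit canonical genes, ordered by the live value, with open circles for the live and filled circles for the processed library (1 library each). Most pairs of points nearly coincide above 100 FPKM, and RPL36A stands apart at 8.55 in live and 56.0 in processed cells.

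Large and small subunit genes differed little in level. The median FPKM of the large subunit was 721 in the live and 732 in the processed library, and that of the small subunit was 628 and 611, a ratio of 1.15 in live and 1.20 in processed cells. The ranges overlapped widely, from 8.55 to 2188 FPKM for the large and from 144 to 2046 FPKM for the small subunit in live cells.

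Between live and processed cells, 1 of the 86 members with 1 FPKM or more in either library was more than 2-fold higher in processed cells, RPL36A, and 0 were more than 2-fold lower. Ratios are log2((processed FPKM + 1) / (live FPKM + 1)), a scale on which weakly expressed genes appear to change less than they do. Across all 17326 genes at this level, the share past 2-fold was 6.57% upward and 6.19% downward. Among the 718 genes that reached 100 FPKM, a level closer to that of the members, the shares were 1.39% and 1.25%. The median log2 ratio was -0.037 in the canonical genes, with quartiles of -0.12 and 0.024, and -0.092 over all genes tested, with quartiles of -0.39 and 0.25. Over the genes that reached 100 FPKM and are not members it was -0.081, with quartiles of -0.21 and 0.082. Of the 78 canonical genes, 71 had an absolute log2 ratio below 0.25.

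The bounds were narrow at these levels and separated small differences. They did not overlap for 57 of the 86 members, with 17 higher and 40 lower in processed cells. Across all genes tested, 28.1% were separate and higher and 43.7% separate and lower, and among the 718 genes that reached 100 FPKM the shares were 25.5% and 51.8%. Among the 78 canonical genes alone, 14 (17.9%) were separate and higher and 38 (48.7%) separate and lower. The split of the members turned with the scaling. The typical expressed gene was at 0.932 times its live FPKM in the processed library. When the processed values were divided by this factor, 48 members were separate and higher and 19 separate and lower, and the canonical median moved to 0.064. That scaling moves the median of all genes tested from -0.092 to 0.0021. Under it, 6101 of 17439 genes tested were separate and higher and 6180 separate and lower.

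**Figure D2:**
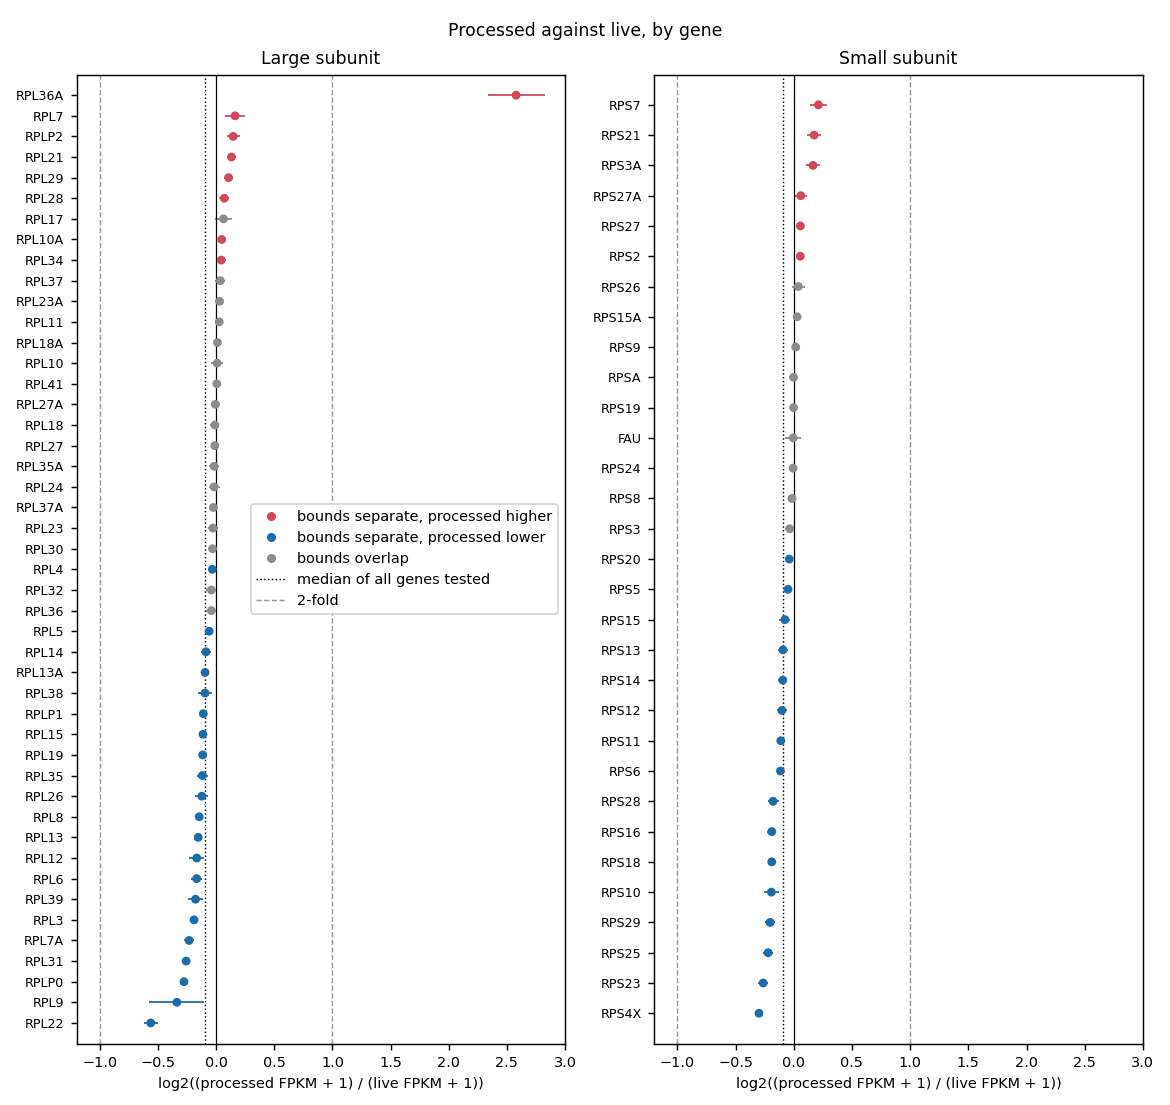
Log2 ratio of processed to live FPKM (pseudocount 1) for the same 46 and 31 canonical genes, with bars from the lower processed over the upper live bound to the upper processed over the lower live bound (1 library each). All points but RPL36A lie between the dashed 2-fold lines, and most lie between -0.25 and 0.25.

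The subunits moved alike. The median log2 ratio was -0.032 in the 46 large subunit genes and -0.045 in the 32 small subunit genes, a difference of 0.013. Bounds were separate and lower for 21 large subunit genes (45.7%) and 17 small subunit genes (53.1%), and separate and higher for 8 (17.4%) and 6 (18.8%). The small subunit ran from -0.30 for RPS4X to 0.21 for RPS7. The large subunit ran from -0.56 for RPL22 to 2.58 for RPL36A, and without RPL36A its highest ratio was the 0.16 of RPL7.

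Genes of the ribosome's working parts gave ratios on both sides of 0. The stalk, the flexible arm of the large subunit that recruits translation factors, is built from RPLP0 at its base and pairs of RPLP1 and RPLP2. RPLP0 had 999 FPKM (bounds 991 to 1008) in live and 825 FPKM (816 to 834) in processed cells, a log2 ratio of -0.28. RPLP1 had 882 FPKM (874 to 891) and 817 FPKM (808 to 827), a log2 ratio of -0.11. RPLP2 went from 541 FPKM (531 to 551) in live to 599 FPKM (587 to 611) in processed cells, a log2 ratio of 0.15. The order of level within the stalk, RPLP0 over RPLP1 over RPLP2, was kept in both libraries, although the bounds of RPLP0 and RPLP1 overlapped in processed cells.

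RPL5 and RPL11 join 5S ribosomal RNA in a particle that also binds MDM2 and so links ribosome assembly to p53. RPL5 had 928 FPKM (921 to 934) in live and 890 FPKM (883 to 897) in processed cells, and RPL11 had 1018 FPKM (1008 to 1028) and 1037 FPKM (1027 to 1047), so that the bounds were separate for RPL5 and overlapped for RPL11. RPS27A and FAU are made as fusions with ubiquitin or a ubiquitin-like protein. Both were low for the family by their own FPKM. RPS27A had 214 and 224 FPKM and FAU had 287 and 286 FPKM in live and processed cells. Genes that share a stretch of sequence with RPS27A summed to 749 and 673 FPKM, and those for FAU to 89.7 and 75.7 FPKM. With the sharing genes added, RPS27A reached 964 and 896 FPKM, and its log2 ratio went from 0.060 to -0.10. How fragments were divided between RPS27A and these genes was not tested, so its low level is uncertain.

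Of the 8 genes at the peptide exit tunnel and its rim, 6 were separate and lower in processed cells and 0 separate and higher, with a median log2 ratio of -0.12, beside 43.7% lower and 28.1% higher over all genes tested and 51.8% and 25.5% over those that reached 100 FPKM. With the processed values divided by the median ratio, 2 of the 8 were lower and 3 higher, and the median was -0.016. Under that scaling, 6180 of 17439 genes tested were lower and 6101 higher. RPL31 was the lowest of them at -0.26, RPL39, which lines the tunnel, had -0.18, and RPL17 was the highest at 0.064 with overlapping bounds. RPL26, RPL35 and RPL4, at -0.12, -0.12 and -0.033, were also separate and lower. With sharing genes added, their ratios were -0.012, -0.0013 and -0.0009. Those of RPL31, RPL19 and RPL39, the others that were lower, were then -0.24, -0.12 and -0.26. RPL17 and RPL23A were then at 0.016 and -0.024. How fragments were divided between these genes was not tested. Of the 5 genes of the mRNA entry and decoding region, 2 were separate and lower, RPS23, from 995 to 829 FPKM, and RPS15, from 551 to 522 FPKM. RPS2 was separate and higher, from 749 to 778 FPKM, and the other 2 overlapped. With sharing genes added, the log2 ratio of RPS2 went from 0.055 to -0.087, and those of RPS23 and RPS15 were -0.11 and -0.089. Under the median ratio 1 of the 5 was lower and 3 were higher, beside 6180 lower and 6101 higher of 17439 genes tested. Of 9 genes mutated in Diamond-Blackfan anaemia, an inherited failure of red cell production, 3 were separate and lower, 1 was separate and higher and 5 overlapped, with a median log2 ratio of -0.0062. Beside these counts stand the 43.7% lower and 28.1% higher of all genes tested. Under the median ratio 1 of the 9 was lower and 7 were higher, beside 6180 lower and 6101 higher of 17439 genes tested. RPS10 was the lowest of the 9, at -0.19. RPS7, with 144 FPKM (141 to 147) in live and 167 FPKM (162 to 172) in processed cells, was the highest.

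Outside RPL36A, the highest ratios among canonical genes were those of RPS7 at 0.21, RPS21 at 0.17, RPS3A at 0.16 and RPL7 at 0.16. RPS21 had 526 FPKM in the live and 594 FPKM in the processed library, and RPS3A had 315 and 353 FPKM. RPS21 shares no stretch of sequence with another gene by the search described below. When sharing genes were added to the others, the ratios were 0.14 for RPS7, 0.032 for RPS3A and 0.019 for RPL7. The lowest were RPL22 at -0.56, RPL9 at -0.34, RPS4X at -0.30, RPLP0 at -0.28 and RPS23 at -0.26. With sharing genes added, these ratios were -0.16 for RPL22, -0.18 for RPL9, -0.29 for RPS4X, -0.17 for RPLP0 and -0.11 for RPS23. How fragments were divided between these genes and those that share sequence with them was not tested. RPS4X, the X-linked form of a small subunit protein, had 448 FPKM (443 to 454) in live and 364 FPKM (359 to 369) in processed cells.

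The ratio bore little relation to the size of the message. Across the 77 canonical genes with a transcript in GENCODE release 44, coding length and log2 ratio had a Spearman's rho of -0.085, and GC content and log2 ratio a rho of -0.015. Both describe genes within 1 pair of libraries.

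The L paralogues are separate genes that encode close relatives of a standard ribosomal protein, several of them used in particular tissues. RPL3L, known from heart and skeletal muscle, was listed at 0 in both libraries, and RPL10L, known from testis, was listed at 0 in live cells and at 0.0169 FPKM in processed cells. RPL7L1, RPL22L1, RPL26L1, RPL39L and RPS27L lay below their parents in both libraries. Coding sequences were compared to see how far reads could be shared. RPL39 and RPL39L, printed because they are the closest pair by this measure, differ at 8 of 156 bases, which are in capitals (GRCh37 transcripts, 5′ to 3′).
RPL39: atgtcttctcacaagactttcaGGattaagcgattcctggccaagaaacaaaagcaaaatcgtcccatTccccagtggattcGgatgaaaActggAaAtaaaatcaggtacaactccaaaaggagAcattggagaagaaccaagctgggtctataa
RPL39L: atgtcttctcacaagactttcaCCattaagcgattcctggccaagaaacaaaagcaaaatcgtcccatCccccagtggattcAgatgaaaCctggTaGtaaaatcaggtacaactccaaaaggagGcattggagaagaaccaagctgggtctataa
RPS27 and RPS27L, printed for contrast, differ at 56 of 255 bases.
RPS27: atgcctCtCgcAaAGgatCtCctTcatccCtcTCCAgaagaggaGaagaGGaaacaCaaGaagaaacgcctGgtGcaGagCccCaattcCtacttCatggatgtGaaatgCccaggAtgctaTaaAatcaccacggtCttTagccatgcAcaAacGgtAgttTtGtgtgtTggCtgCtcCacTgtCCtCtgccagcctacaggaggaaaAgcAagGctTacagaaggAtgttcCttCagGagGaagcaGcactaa
RPS27L: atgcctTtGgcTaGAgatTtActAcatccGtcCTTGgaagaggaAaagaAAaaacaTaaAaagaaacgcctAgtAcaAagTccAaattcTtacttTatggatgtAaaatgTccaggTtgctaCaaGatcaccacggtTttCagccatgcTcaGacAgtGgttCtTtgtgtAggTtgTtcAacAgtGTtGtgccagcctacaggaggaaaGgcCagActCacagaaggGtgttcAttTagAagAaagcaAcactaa
The longest identical stretch between the transcripts was 67 bases for RPL39 and RPL39L, 20 bases for RPS27 and RPS27L, 20 bases for RPL26 and RPL26L1, 17 bases for RPL22 and RPL22L1 and 11 bases for RPL7 and RPL7L1, all shorter than a read of 80 nt.

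RPL22 and RPL22L1 moved in opposite directions and gave the widest gap between a parent and its paralogue. RPL22 (chromosome 1, 6241329 to 6269449 on GRCh37/hg19), an RNA-binding protein of the large subunit, had 203 FPKM (bounds 199 to 207) in live and 137 FPKM (135 to 140) in processed cells. RPL22L1 (chromosome 3, 170582664 to 170588272) had 41.4 FPKM (39.3 to 43.4) in live and 69.2 FPKM (65.8 to 72.6) in processed cells. The log2 ratios were -0.56 and 0.73, a difference of 1.29. RPL22L1 thus made up 16.9% of the FPKM of the pair in live cells and 33.5% in processed cells. RPL22 had the lowest ratio of all 89 genes. The transcript of RPL22 shares 15% of its 80-base windows with other genes, of which RP11-641D5.1, with 310 and 314 FPKM, shares the most, whereas RPL22L1 shares none. The sharing genes had a summed FPKM of 446 in the live and 444 in the processed library, more than RPL22 itself. With them added to RPL22 its log2 ratio was -0.16, the difference from RPL22L1 was 0.89, and RPL22L1 made up 5.99% and 10.7% of the sum. How fragments were divided between RPL22 and these genes was not tested. RNF207, which overlaps the RPL22 locus, had 8.02 and 4.00 FPKM.

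RPL26L1 (chromosome 5, 172385732 to 172396774) was the other paralogue with a wide gap, at 12.5 FPKM (11.4 to 13.7) in live and 21.2 FPKM (19.9 to 22.4) in processed cells, a log2 ratio of 0.71. Its parent RPL26 had 710 and 652 FPKM, a log2 ratio of -0.12, so the paralogue made up 1.74% and 3.15% of the pair. RPL26 shares 62.4% of its 80-base windows with genes that summed to 310 and 359 FPKM. With them added to RPL26 its log2 ratio was -0.012, and the difference from RPL26L1 went from 0.83 to 0.72. RPL26L1 then made up 1.21% and 2.05% of the sum. How fragments were divided between RPL26 and these genes was not tested. RPL26P30, which shares 30.6% of the 80-base windows of RPL26L1, had 11.3 and 19.1 FPKM, and its part in the value of RPL26L1 was not tested.

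The other paralogues differed less from their parents. RPS27L, known as a target of p53, had 36.9 FPKM (34.8 to 38.9) in live and 44.2 FPKM (42.2 to 46.1) in processed cells, a log2 ratio of 0.25 against 0.056 for RPS27. RPL39L had 9.75 FPKM (8.73 to 10.8) and 9.15 FPKM (8.33 to 9.98), with overlapping bounds, against 384 and 340 FPKM for RPL39. RPL7L1, a protein of ribosome assembly, had 28.7 FPKM (28.1 to 29.4) and 26.0 FPKM (24.6 to 27.5), a log2 ratio of -0.14 against 0.16 for RPL7. Over these 5 expressed paralogues the ratio was above the parent's in 4 and below it in 1, with a median difference of 0.20. The median was 0.52 when RPL39L, one of the 4 and the one with overlapping bounds, was left out by a filter of 10 FPKM.

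Of the 3 loci listed later as pseudogenes, RPS4L had 10.5 and 11.2 FPKM, RPL12L3 had 5.56 and 7.18 FPKM and RPS10L was listed at 0 in both. The bounds of RPS4L and RPL12L3 overlapped between live and processed cells.

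**Figure D3:**
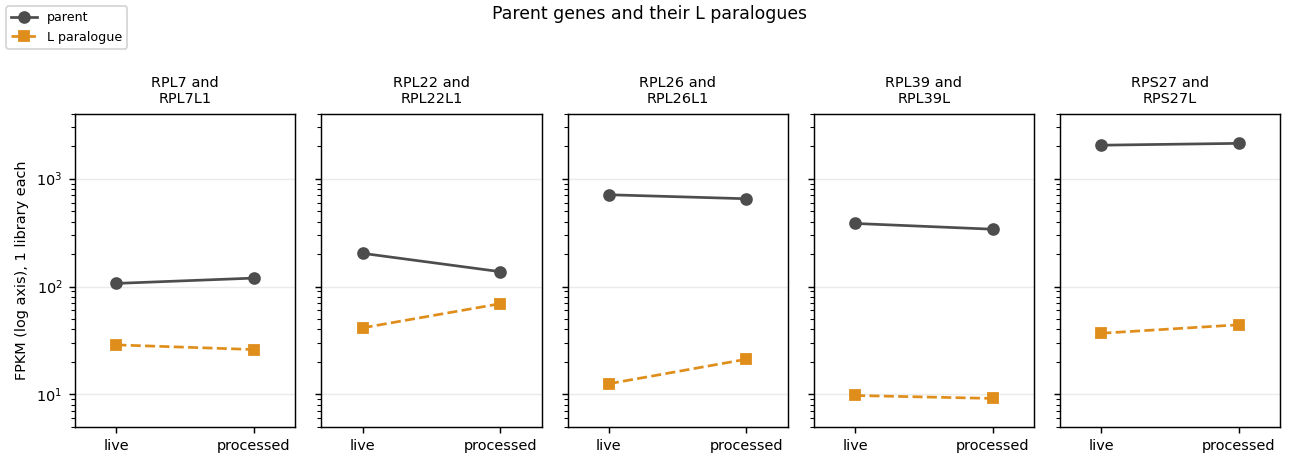
FPKM (log axis) of 5 parent genes (circles) and their L paralogues (squares) in the live and the processed library, 1 library each. The lines of RPL22 and RPL22L1 converge, from 203 and 41.4 to 137 and 69.2 FPKM.

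RPL36A was the one member past 2-fold. RPL36A (chromosome X, 100645812 to 100651105 on GRCh37/hg19), a large subunit protein near the site where spent tRNA leaves, had 8.55 FPKM (7.48 to 9.62) in live and 56.0 FPKM (52.8 to 59.3) in processed cells, a log2 ratio of 2.58. It was the lowest canonical gene in live cells and the second lowest in processed cells. Of the 80-base windows of its transcript, 40.3% occur in at least one of 5 other annotated genes. One of these, RP11-466H18.1 (chromosome 11, 16996240 to 16996560), shares 35.5% of the windows and had 892 and 810 FPKM in the live and the processed library. The summed FPKM of RPL36A and the 5 genes was 901 in live and 882 in processed cells, a log2 ratio of -0.031. RPL36AL, whose coding sequence is 90.0% identical to that of RPL36A with no identical stretch over 63 bases, had 127 and 109 FPKM. How fragments were divided between RPL36A and RP11-466H18.1 was not tested.

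RPL9 (chromosome 4, 39455744 to 39460568), a large subunit protein, was low in the same way but in both libraries, with 14.1 FPKM (13.0 to 15.2) in live and 10.9 FPKM (9.86 to 12.0) in processed cells. Of its 80-base windows, 77.1% occur in other genes. RPL9P8 and RPL9P9 each share 77.1% of the windows and had 481 and 482 FPKM in live and 415 and 425 FPKM in processed cells, and RPL9P7, which shares 62.9%, had 209 and 195 FPKM. The sum over RPL9 and the 8 genes that share windows was 1190 in live and 1052 in processed cells. It covers several loci and is not a level of RPL9 itself. Like sums in live cells were 3064 for RPL3 and 4566 for RPL41. How fragments were divided between RPL9 and these genes was not tested.

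Such look-alike genes were common in the family. Of the 77 canonical genes with a transcript in release 44, 64 share at least one 80-base stretch with another annotated gene, and 12 share at least 50% of their windows. The summed FPKM of the sharing genes exceeded that of the gene itself for 22 of the 77 genes in the live library and for 22 in the processed one. RPL39 had 384 FPKM in live cells beside 1486 FPKM for RPL39P3, which shares 24.8% of its windows, and RPL7 had 107 FPKM beside a sum of 935 FPKM. The levels of these genes are therefore uncertain, since the division of shared fragments is not stated. The 13 canonical genes with no shared stretch, RPL8, RPL11, RPL18, RPL27, RPL30, RPL35A, RPL36, RPL37, RPL37A, RPL38, RPLP2, RPS19 and RPS21, ran from 491 to 1332 FPKM in live cells, and their median log2 ratio was -0.011 beside -0.055 in the 64 genes that share one. When the sharing genes were added to each gene, the median over the 77 genes moved from -0.035 to -0.041, and the sign changed for 10 genes.

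**Figure D4:**
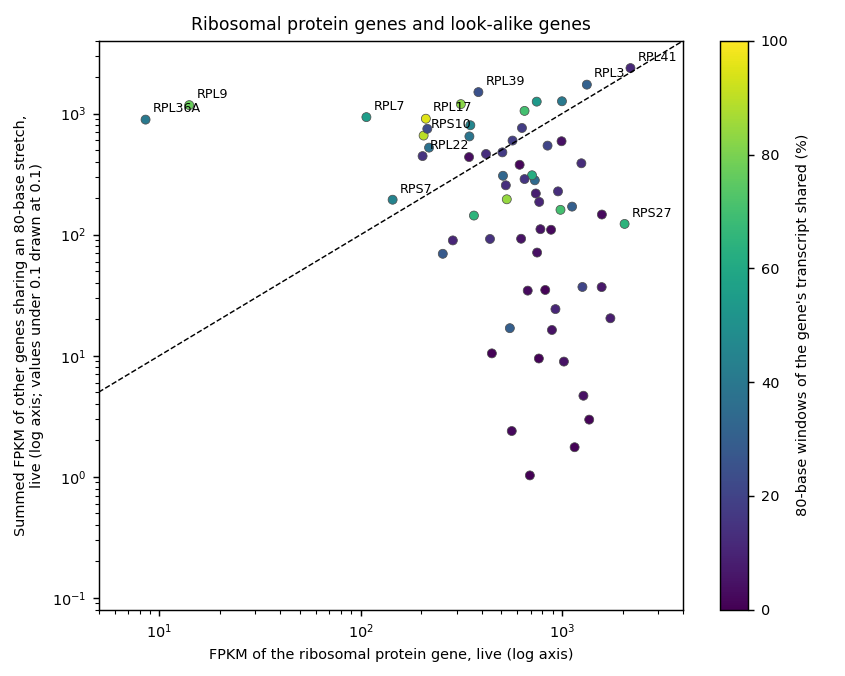
FPKM of canonical genes in live cells against the summed FPKM of other genes that share an identical 80-base stretch with their transcripts (both axes log, 64 genes, 1 library). Points above the dashed line of equal values, 22 in number, have look-alikes with more FPKM than the gene, and RPL36A and RPL9 lie farthest to the left.

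Pseudogenes named after a member numbered 560, for 74 members, and 101 of them had 1 FPKM or more in either library. Their summed FPKM was 16246 in live and 15569 in processed cells. Another annotated gene with an FPKM of at least 1 overlapped the locus of 31 of the 89 members, at no more than 99.9 FPKM in the live and 240 FPKM in the processed library. Whether the counting used strand is not stated.

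Other genes tied to translation were set beside the members. Of 19 other mRNAs with a TOP tract, 13 were separate and lower in processed cells, 5 separate and higher and 1 overlapped, with a median log2 ratio of -0.11. These are 68.4% and 26.3%, beside 43.7% and 28.1% of all genes tested and 51.8% and 25.5% of those that reached 100 FPKM. Under the median ratio 9 of the 19 were lower and 7 higher, beside 6180 lower and 6101 higher of 17439 genes tested. EIF4B, which assists the helicase of translation initiation, was lowest, from 195 to 146 FPKM, followed by PABPC1, the poly-A binding protein, from 1006 to 775 FPKM. EIF3H and EIF3K, subunits of the initiation factor eIF3, were highest, from 127 to 173 FPKM and from 87.7 to 107 FPKM. Of 25 ribosome assembly factors, 10 (40%) were separate and lower, 7 (28%) separate and higher and 8 overlapped, with a median of -0.067. The shares over all genes tested were 43.7% and 28.1%. The ratios of the assembly factors were spread more widely than those of the canonical genes other than RPL36A, with quartiles of -0.32 and 0.19. They ranged from -0.97 to 0.36. The assembly factors were also far lower in level, with a median of 18.1 FPKM in live cells against 701 for the canonical genes. Over all genes tested, at a median of 8.46 FPKM, the quartiles were -0.39 and 0.25, wider than those of the assembly factors. BOP1 and HEATR1, which act in ribosomal RNA processing and transcription, had 13.96 and 6.66 FPKM and 10.5 and 6.25 FPKM in live and processed cells. At the other end were RPF2, with 9.21 and 12.1 FPKM, and TSR1, with 20.4 and 25.4 FPKM.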

How the data were processed

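RNA-seq of 1 live and 1 processed sample was analysed. Per the labels and the paper's methods, the authors aligned paired reads of 80 nt of poly-A purified RNA to GRCh37/hg19 with STAR 2.2.0c, guided by GENCODE version 14, and computed FPKM per gene with version 2.0.2 of Cuffdiff, which belongs to Cufflinks. The deposited FPKM values carry lower and upper bounds of unstated level. The treatment of reads that map to several places, which matters for this family, is not given in the sources used here.

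Genes were joined by Ensembl identifier, since only 5489 stood in the same row of both tables. Members, gene lists and the rule for named genes were chosen with earlier results of these data known. Named genes are the highest and lowest members by level and by ratio, the paralogues with their parents, 3 role lists in full and the extremes of the others. RPL8, RPL18, RPL27, RPL30, RPL35A, RPL36, RPL37, RPL38 and RPS19, RNF207, RPL36AL and the look-alike genes were added after their values were seen. Genes entered the counts from 1 FPKM in either sample, and log2 ratios used a pseudocount of 1. With 1 sample per group no test was run. Start sites came from RefSeq (GRCh38.p14) and transcripts, of which 88 of 89 members had one, from the Ensembl canonical transcript in GENCODE release 44 mapped to GRCh37. Sharing was any identical 80-base window on the sense strand. Alternatives covered the pseudocount, the filter, the scaling, the status and the canonical genes alone. Python 3.11.15, numpy 2.4.6, pandas 2.3.3, scipy 1.17.1 and Biopython 1.88 were used, and the calculations were tested on simulated data. 1 canonical gene with its copy is not reported here.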

Additional observations from a re-analysis of the deposited data

How the results depend on the processing

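No paired analysis was possible because each condition has 1 sample. Scaling moved the counts by separate bounds and the medians of the ratios, and the filter on low FPKM moved the other values given here. Members with separate bounds that were higher in processed cells numbered 27 with FPKM rescaled to the same sum, 37 with FPKM rescaled without genes of the mitochondrial genome and 48 with processed FPKM divided by the median ratio, against 17 as reported, and those that were lower numbered 19 under the last of these, against 40. Over all genes tested, 4867 of 17326 were separate and higher as reported, and 5233 of 17365 with the same sum. The number was 5593 of 17395 without mitochondrial genes and 6101 of 17439 under the median ratio. Under the median ratio, 6180 of the 17439 were separate and lower. The median log2 ratio of the members moved from -0.034 to 0.028 without mitochondrial genes and to 0.067 under the median ratio. The ratio of RPL5, -0.060 as reported, became 0.041 under the median ratio and 0.0019 without mitochondrial genes. These shifts follow from multiplying every processed value by one factor. With a filter of 100 FPKM, which leaves out RPL36A, 0 members were past 2-fold, and the large over small subunit median FPKM in live cells was 1.18. With a filter of 10 FPKM, which leaves out RPL39L, the median difference between L paralogues and parents was 0.52. The filters and the status setting only choose which genes are kept, so they cannot change the ratio of a single gene. Their values equal the reported ones by construction and count among those within the range given by the bounds. For single genes, 182 of 212 values stayed within that range. All others came under a scaling, where 27 moved outside it with the same sign and 3 moved outside it and changed sign. These 3 were those of RPL5 and that of FAU under the median ratio, from -0.0058 to 0.095. Of the values within the range, 3 also changed sign, FAU at 0.026 with the same sum and 0.056 without mitochondrial genes, and RPL39L, from -0.082 to 0.0093 under the median ratio.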
